A study of Mus musculus with 2 samples.

Results

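Matrix metalloproteinases (MMPs) are zinc enzymes that cut collagens, laminins and other matrix proteins, and the tissue inhibitors of metalloproteinases (TIMPs) bind their active sites and block them. Most MMPs are secreted as inactive precursors and are switched on by other proteases, *Mmp14* being a membrane-bound form that activates *Mmp2* together with *Timp2*. In the cornea, they are known for the turnover of stromal collagen and for the release and migration of epithelial cells after a wound. Described here are 9 genes, the 6 proteases *Mmp2*, *Mmp3*, *Mmp9*, *Mmp10*, *Mmp13* and *Mmp14* and the 3 inhibitors *Timp1*, *Timp2* and *Timp3*, chosen by name, of 20198 genes in the count table and of 25 Mmp and Timp genes in it. All 9 were found.

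Single corneal cells were captured in droplets (10x Genomics) and sequenced as 2 libraries. UW held pooled corneas of 4 normal, unwounded mice, and W those of 4 mice 24 h after the corneal epithelium had been wounded. The study's methods give male mice aged 6 to 8 weeks. In both groups the epithelium was loosened with dispase II and then trypsin was used on it, and collagenase A on the remaining tissue, so the wound is the only difference that the labels give. For wounding, the study's methods also describe pentobarbital anesthesia, procaine on the eye and ofloxacin on the wound. Their effects cannot be told apart from that of the wound. Since each condition was 1 library of pooled mice, no difference between them has a replicate check, no p-value is given, and every interval below covers counting error only.

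The table held 16450 UW and 12417 W cells in 17 deposited clusters, with a median of 22014 and 20290 unique molecular identifiers (UMIs, one per captured transcript) per cell. The 2 libraries shared 52 cell barcodes. Levels are counts per 1000000 UMIs (CPM) of the summed UMIs of a cluster in 1 library, with the exact Poisson 95% interval. UMIs were counted at transcript ends and are not divided by gene length, so levels are set side by side within a gene, between clusters and libraries. Ratios of W to UW were taken in the 12 clusters with at least 50 cells in each library, as log2 values with the exact conditional 95% interval.

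Clusters were named "-like" from marker lists. Cluster 0 was CSC-like (corneal stromal cells, led by *Kera*), cluster 3 basal-like (led by *Krt18* and *Ppbp*, with *Itgb4* and *Lamb3*), cluster 9 limbal-like (*Wfdc18*, *Dlk2*), clusters 8 and 11 mitotic and S phase cells, clusters 1 and 4 suprabasal-like, clusters 2 and 6 superficial-like, cluster 7 terminal-like (*Lce3a*) and cluster 5 conjunctival-like (*Krt4*, *Krt19*). Cluster 10 was led by *Penk* and *Myoc*, with both endothelial and CSC markers high, and was left unnamed, as was cluster 13, led by *Ccl3* and *Stfa2l1*, in which the neutrophil markers were higher than in any other cluster but whose median depth was 2509.5 UMIs. Clusters 14 (led by *H2-Aa*, with *C1qa*) and 15 (*Pf4*, *Lyz2*) were Mono-like (monocyte lineage). Cluster 16 was T-like (*Cd3g*, *Cd3d*), but its W cells also had mast cell markers, all 4 detected and 1013.3 CPM in sum, with *Mcpt4* among its leading genes. Clusters 13 to 16 held 710, 354, 251 and 215 cells in W and at most 7 in UW, so they give levels for W but no ratio.

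*Mmp13*, *Mmp3* and *Mmp10*, which encode collagenase 3, stromelysin-1 and stromelysin-2, lie close together on chromosome 9 (GRCm38, GENCODE M21), at chr9:7272514-7283331, chr9:7445822-7455975 and chr9:7502352-7510240, all on the plus strand. The 120 bases before the RefSeq start (GRCm38.p6) are shown for these neighbours, because all 3 had more UMIs in W, and for *Timp1*, whose level followed that of *Mmp3* most closely. Capitals mark the AP-1 letters TGACTCA or, on the other strand, TGAGTCA.
*Mmp3*, chr9:7445702-7445821, plus strand: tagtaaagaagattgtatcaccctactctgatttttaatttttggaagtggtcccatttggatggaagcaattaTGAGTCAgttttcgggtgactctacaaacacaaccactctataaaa
*Mmp10*, chr9:7502222-7502341, plus strand: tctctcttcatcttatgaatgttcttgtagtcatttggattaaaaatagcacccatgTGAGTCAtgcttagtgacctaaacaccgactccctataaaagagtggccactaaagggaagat
*Mmp13*, chr9:7272394-7272513, plus strand: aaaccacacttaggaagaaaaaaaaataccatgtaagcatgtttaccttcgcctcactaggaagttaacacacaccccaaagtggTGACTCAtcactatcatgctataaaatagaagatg
*Timp1*, chrX:20870046-20870165, plus strand: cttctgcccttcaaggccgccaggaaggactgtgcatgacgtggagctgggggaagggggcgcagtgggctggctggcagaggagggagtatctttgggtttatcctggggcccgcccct
The letters began at position -46 from the start in *Mmp3*, -63 in *Mmp10* and -35 in *Mmp13*. They were absent from the 300-base windows (250 before to 50 after the start) of *Timp1*, *Timp2*, *Timp3* and *Mmp14*. RefSeq windows were found for 7 members, not for *Mmp2* and *Mmp9*. Of all 32851 windows, 5.20% held the letters on either strand, and 2.30% held them in the 120 bases shown. A match of letters is a description of the sequence, not a measured binding site.

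The members fell into 3 kinds of pattern. *Mmp3* and *Timp1* were higher in W in each of the 12 clusters compared. Their highest levels in W, among clusters of at least 50 cells, were in clusters 0 and 10. *Mmp9*, *Mmp10* and *Mmp13* were close to 0 in UW. Among clusters of at least 50 cells in W, *Mmp9* was highest in cluster 13, *Mmp10* in cluster 3, and *Mmp13* in clusters 15, 14 and 3. *Mmp2*, *Mmp14*, *Timp2* and *Timp3* were present in UW and changed less. *Mmp2* was at least 2-fold higher in W in 7 clusters, *Timp2* in 3 and *Timp3* in 1. *Timp3* was at least 2-fold lower in W in 4 clusters.

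**Figure D1:**
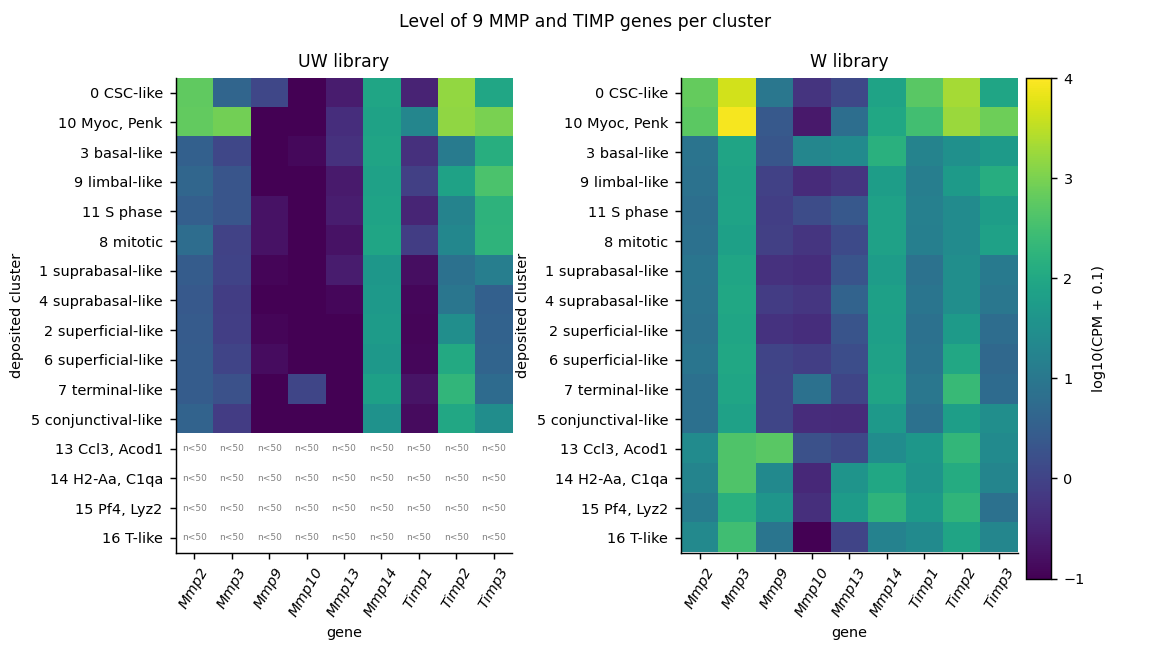
Levels of the 9 genes in UW (left) and W (right), as log10(CPM + 0.1) by color, with genes on the x axis and deposited clusters on the y axis. Cells marked n<50 had too few cells in UW. *Mmp3* in W reached 4515 CPM in cluster 0 and 8631 CPM in cluster 10, and *Mmp9* 523.6 CPM in cluster 13.

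Counting a gene as changed when it had at least 20 UMIs over both libraries and a ratio of at least 2-fold, 54 of 91 pairs of a member and a cluster were higher in W and 4 were lower. In the CSC-like cluster 0, 4 of 8 members were higher, where 7.34% of all genes were, and none was lower (9.67% of all genes). In cluster 10, it was 4 of 8 against 4.97%, and none against 6.63% lower. In the basal-like cluster 3, 7 of 9 members were higher (15.1% of all genes) and 1, *Timp3*, was lower (11.1%). In the limbal-like cluster 9, 3 of 7 were higher (9.12%) and *Timp3* was lower (9.76%). Among dividing cells, 5 of 9 members were higher in cluster 8 (10.8%) and 5 of 8 in cluster 11 (12.7%), and *Timp3* was lower in both (9.58% and 9.33% of all genes).

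In the remaining epithelial clusters no member was lower. Of 7 members compared in each, 5 were higher in cluster 1 (14.7% of all genes higher, 11% lower), 4 in cluster 2 (13.2% and 13.1%), 6 in cluster 4 (13.8% and 13.5%), 3 in cluster 5 (12.7% and 7.47%), 4 in cluster 6 (17.2% and 9.58%) and 4 in cluster 7 (23.2% and 6.48%). Every epithelial count given here and above held *Mmp3* and *Timp1*, and most held *Mmp2*. Over the epithelial clusters of W, *Mmp2* was at 1.04% to 1.37% of its level in clusters 0 and 10 together. For *Mmp3* this was 1.29% to 1.81%, and for *Timp1* 1.49% to 3.64%, where the median CSC marker was at 0.627% to 0.909%. The part of stromal RNA in these calls was not tested. Cluster 7 had the highest share of all genes called higher, and there the median of all genes was itself at 0.26 on the log2 scale. Of the calls in these counts, those of *Mmp2* in clusters 7 and 11 fell below 2-fold under an alternative. For *Mmp9* in clusters 5 and 9, *Mmp10* in cluster 8 and *Mmp13* in cluster 11, an alternative left 0 UMIs in UW and a lower bound under 2-fold, which does not decide the call.

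**Figure D2:**
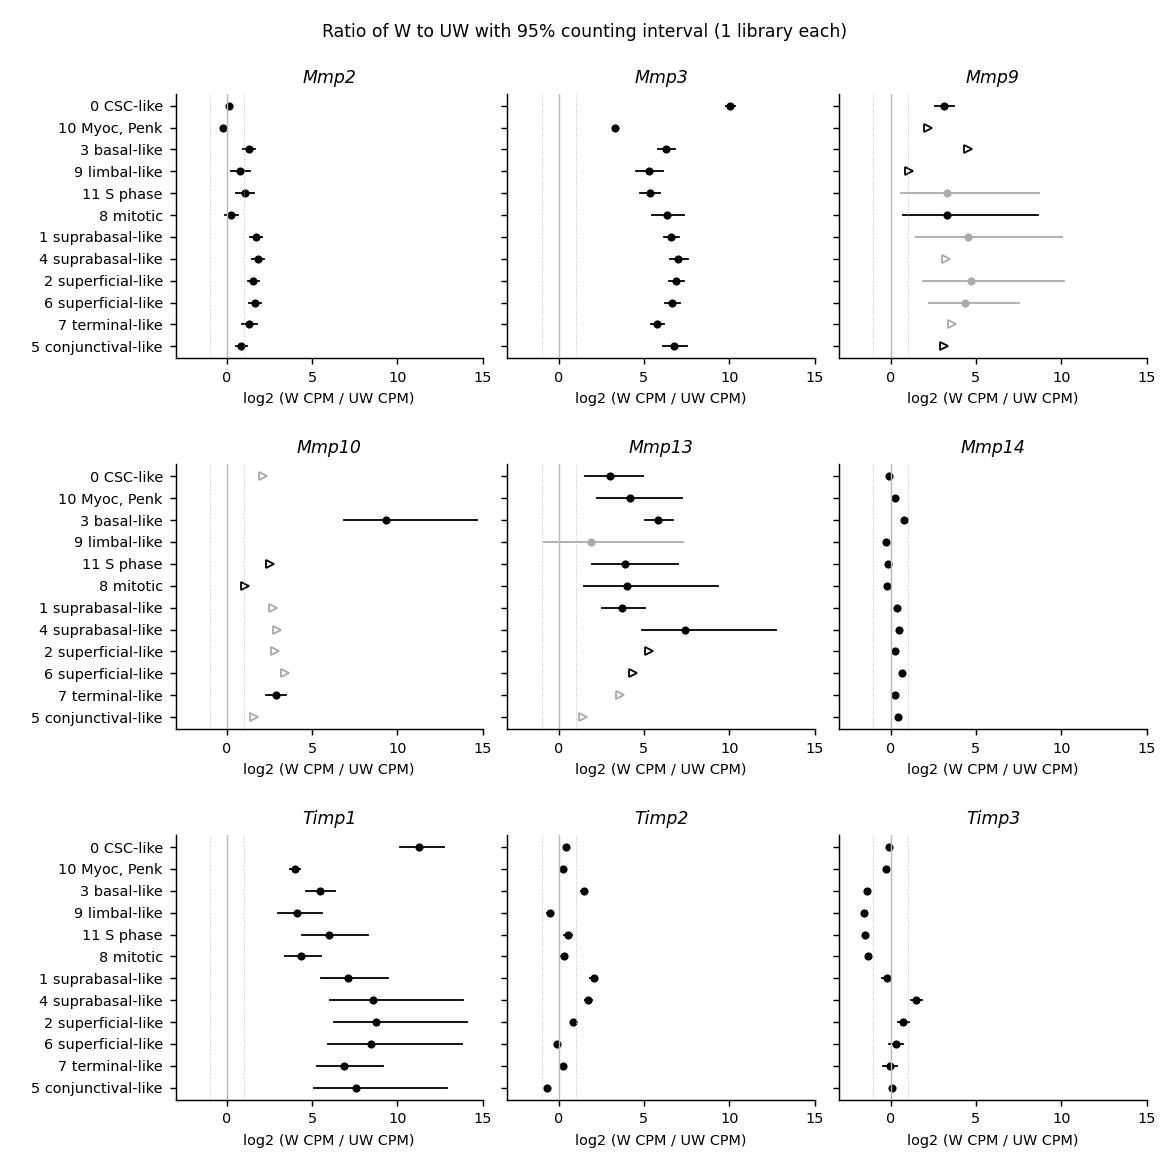
Ratio of W to UW for each gene (x axis, log2 of the CPM ratio) in the 12 clusters (y axis), with 95% counting intervals. Open triangles are lower bounds where UW had 0 UMIs, grey marks had under 20 UMIs in all, and dotted lines mark 2-fold. *Mmp3* and *Timp1* lie right of the dotted line in all 12 clusters, *Mmp14* in none, and *Timp3* lies left of it in clusters 3, 8, 9 and 11.

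*Mmp3* (stromelysin-1), a protease of broad specificity that also activates other pro-MMPs, had the most UMIs of the 9 genes in W. In cluster 0 it was at 4.22 CPM (120 UMIs) in UW and at 4515 CPM (146515 UMIs) in W, a log2 ratio of 10.06 (9.81 to 10.33). A UMI was found in 3.29% of the UW cells and 93.1% of the W cells of that cluster (75.4% of W cells after thinning each cell to 5000 UMIs). Per cell the level was uneven, since the 10% of W cells with the most *Mmp3* held 61.3% of its UMIs and the highest cell had 1375.

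Cluster 10 already had *Mmp3* in UW. It was at 875.4 CPM there, with a UMI in 41.4% of cells, and 4999 of the 5452 UMIs of the whole UW library (91.7%) came from this cluster, which had 3.43% of its cells. In W it was at 8631 CPM, in 97.8% of cells, a log2 ratio of 3.30 (3.26 to 3.34). In UW, the highest 10% of the cells of cluster 10 held 79.4% of the UMIs, and in W 43.0%.

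Outside clusters 0 and 10, *Mmp3* kept to a narrow range over the epithelial clusters, from 0.668 CPM in cluster 5 to 2 CPM in cluster 11 in UW and from 69.1 to 97.2 CPM in W. Those W levels were 1.29% to 1.81% of the level in clusters 0 and 10 together, while the median of 6 CSC markers (*Kera*, *Lum*, *Dcn*, *Col1a1*, *Col1a2*, *Col6a1*) was 0.627% to 0.909% and *Mmp2* was 1.04% to 1.37%. The highest of these markers was at 0.910% to 1.54%, below *Mmp3* in each of these clusters and above *Mmp2* in clusters 1 and 7. Free RNA can give UMIs of abundant genes to cells of other types, and its part in these *Mmp3* ratios was not tested. A UMI of *Mmp3* was found in 83.3% to 91.3% of the W cells of these clusters, and in 31.8% to 40.3% after thinning. The immune clusters had 425.0 CPM (cluster 13), 413.3 CPM (14), 297.4 CPM (16) and 146.5 CPM (15), clusters 13 and 14 having overlapping intervals. As a share of the level in clusters 0 and 10, these were 7.94%, 7.72%, 5.55% and 2.74%, where the highest CSC marker was at 5.76%, 2.77%, 3.60% and 2.05%. Of the 1523 UMIs in cluster 14, 698 came from 1 cell.

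*Timp1*, a secreted inhibitor of most MMPs, had nearly the same pattern. In cluster 0 it had 6 UMIs in UW (0.211 CPM) and 16781 in W (517.1 CPM), a log2 ratio of 11.26 (10.14 to 12.71, and 10.66 after thinning). A UMI was found in 0.253% of UW cells and 48.1% of W cells, or 30.2% of W cells after thinning. In cluster 10 it went from 19.3 to 307.4 CPM (log2 ratio 4.00, 3.72 to 4.28), and from 12.4% to 68.0% of cells. The order of the 2 clusters was reversed between the libraries, cluster 10 having the higher level in UW and cluster 0 in W.

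In both of these clusters, W cells with *Timp1* had more *Mmp3*. In cluster 0, the 515 thinned cells with a *Timp1* UMI had a mean of 31.1 UMIs of *Mmp3* and the 1193 without had 13.3. In cluster 10, these means were 59.3 (322 cells) and 30.0 (298 cells).

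Among epithelial clusters, *Timp1* in W was highest in cluster 3 at 17.3 CPM, followed by clusters 11, 8 and 9 at 14.7, 14.5 and 13.7 CPM, with overlapping intervals. It was at 7.08 to 9.63 CPM in clusters 1, 2, 4, 5, 6 and 7. As a share of the level in clusters 0 and 10, this was 2.89% to 3.64% in clusters 3, 8, 9 and 11 and 1.49% to 2.03% in the other epithelial clusters. In cluster 3 the log2 ratio was 5.44 (4.65 to 6.37), from 13 to 390 UMIs. The immune clusters 15, 13 and 14 had 52.8, 44.7 and 38.0 CPM, with overlapping intervals between neighbours in that order.

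**Figure D3:**
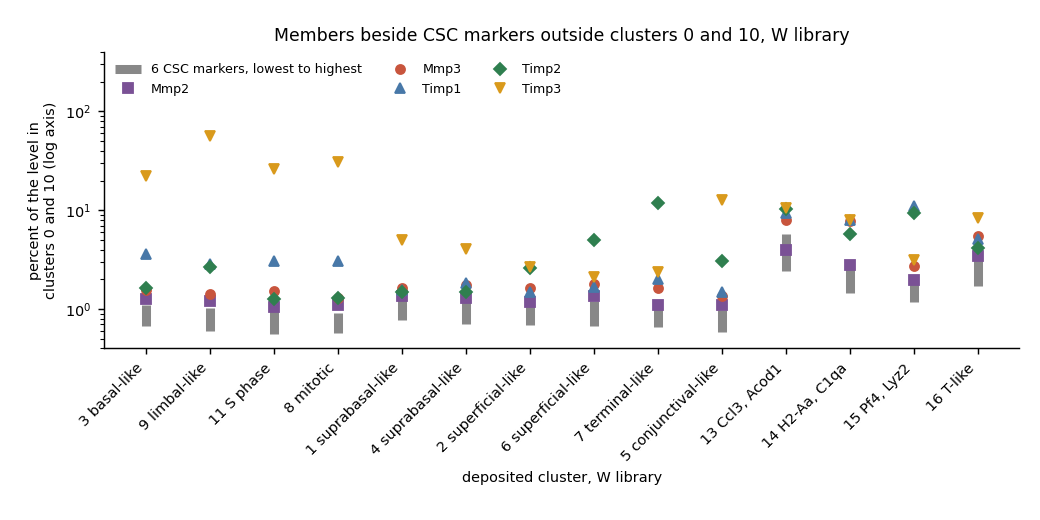
W library, levels outside clusters 0 and 10 as a percent of the level in these 2 clusters together (y axis, log scale), for each cluster (x axis). Grey bars span the 6 CSC markers and points are the genes. In the epithelial clusters *Mmp3* lies above the bars and *Mmp2* near their upper ends, and *Timp3* lies far above them in clusters 3, 8, 9 and 11, up to 56.7%.

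*Mmp9* (gelatinase B), which cuts basement membrane collagen and is stored in neutrophil granules, was nearly absent from UW, with 38 UMIs in all. In W it had 1745 UMIs, of which 961 (55.1%) were in cluster 13, at 523.6 CPM (491.0 to 557.8). A UMI was found in 57.3% of the cells of cluster 13, against 3.72% of the cells of cluster 16, in which T cell and mast cell markers were found together, at median depths of 2509.5 and 4411 UMIs. Next among clusters of at least 50 cells were the Mono-like clusters 15 and 14 at 41.0 and 23.1 CPM, whose intervals did not overlap. The 29 cells of cluster 17, all from W, were at 73.2 CPM.

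Cluster 0 had a lower level of *Mmp9*, and there it went from 30 UMIs, 1 in each of 30 cells, to 305 UMIs, or from 1.05 to 9.40 CPM (log2 ratio 3.16, 2.61 to 3.75), with up to 35 UMIs in a cell. In the W library *Mmp9* in cluster 0 was at 1.80% of its level in cluster 13, while the 5 neutrophil markers (*S100a8*, *S100a9*, *Csf3r*, *Cxcr2*, *Retnlg*) were at 0.0130% to 0.338%, with a median of 0.0302%. In the basal-like cluster 3, where *Mmp9* rose from 0 to 48 UMIs (2.13 CPM), it was at 0.406%, within the markers' range of 0.163% to 1.88%. In the Mono-like clusters 14 and 15, *Mmp9* was at 4.41% and 7.82%, with marker medians of 2.27% and 0.780%. In both it lay below *Csf3r*, at 4.52% and 8.67%, but above each of the other markers. Those were at 0.114% to 2.31% in cluster 14 and at 0% to 1.16% in cluster 15.

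*Mmp10* (stromelysin-2), a protease known from migrating keratinocytes at wound edges, had 37 UMIs in UW and 664 in W. Cluster 3 held 446 of the W UMIs (67.2%) with 7.13% of the W cells. There it went from 1 UMI (0.0305 CPM) to 19.8 CPM, a log2 ratio of 9.34 with a wide interval (6.85 to 14.65), and 5.55 after thinning, when UW had 0 UMIs and the value is a bound. A UMI was found in 11.2% of the W cells of cluster 3, or 4.74% after thinning, against 0.582% in cluster 0. The terminal-like cluster 7 was next, with 36 of the 37 UW UMIs and 88 UMIs in W, at 0.992 and 7.37 CPM (log2 ratio 2.89, 2.32 to 3.49, and 2.25 without cells named doublet). In the other W clusters with at least 50 cells, *Mmp10* was at or below 1.63 CPM.

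*Mmp13* (collagenase 3), which cuts fibrillar collagen, had 33 UMIs in UW and 1253 in W. It was called higher in W in all 9 clusters in which it could be compared, with a log2 ratio of 3.91 in cluster 11 that after thinning had 0 UMIs in UW and 5 in W, a lower bound of 0.85 that leaves 2-fold undecided. Cluster 3 held 545 of the W UMIs (43.5%) and went from 0.427 to 24.1 CPM (log2 ratio 5.82, 5.06 to 6.70), with a UMI in 10.2% of W cells, or 5.09% after thinning. The Mono-like clusters 15 and 14 had higher levels, 55.7 and 38.8 CPM, with a UMI in 14.3% and 12.7% of cells. Clusters 13 and 16 had 2 and 1 UMIs. In cluster 10, 52 UMIs were in 1.74% of the cells (6.25 CPM), and in the suprabasal-like cluster 4 *Mmp13* went from 1 to 88 UMIs (log2 ratio 7.39, 4.87 to 12.71, and 5.27 after thinning).

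In cluster 3 of W, cells with *Mmp10* had a UMI of *Mmp13* more often than cells without. Of 99 cells with *Mmp10*, 35.4% (26.0% to 45.6%) also had *Mmp13*, against 6.997% (5.31% to 9.01%) of 786 cells without it. After thinning these shares were 26.8% of 41 cells and 4.00% of 824 cells. Few cells had any UMI of each gene, so the highest 10% of cells necessarily held most of them (97.8% of *Mmp10* and 99.8% of *Mmp13* UMIs).

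The 154 cells of cluster 3 in W with a UMI of either gene (17.4%) were set beside the 731 without, a split chosen after the values were seen and described with no test. Their median depths were 26833 and 23238 UMIs. Those with *Mmp10* or *Mmp13* had more *Mmp14* (222.9 against 127.9 CPM) and less *Timp3* (21.4 against 60.5 CPM), and their *Mmp3* was not higher (71.9 against 87.9 CPM). The gene with the largest excess was *Igfbp3*, which binds insulin-like growth factors, at 267.1 against 19.1 CPM. Behind it came *Sprr2f*, the chemokine genes *Ppbp* (945.7 against 153.5 CPM) and *Cxcl1*, *Dynap*, the chromatin protein gene *Hmga2* (118.9 against 22.3 CPM) and the simple keratin *Krt8* (124.1 against 25.1 CPM). The largest deficits were in *Adh7* (113.7 against 458.8 CPM), an alcohol dehydrogenase, and *Id1* (126.4 against 469.6 CPM), an inhibitor of basic helix-loop-helix factors.

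**Figure D4:**
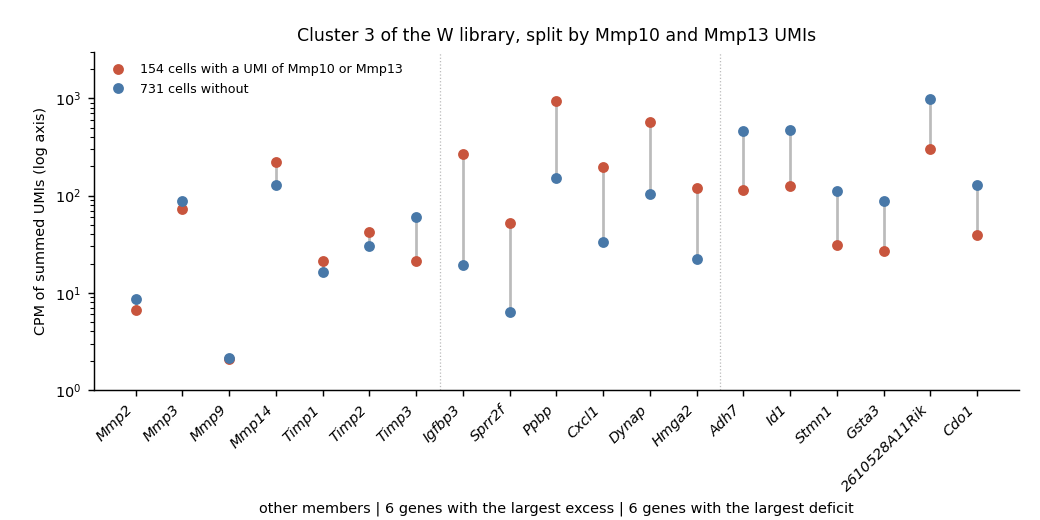
Cluster 3 of W, CPM (y axis, log scale) in the 154 cells with a UMI of *Mmp10* or *Mmp13* and the 731 cells without, for the other 7 members and the 6 genes with the largest excess and deficit (x axis). *Mmp14* is higher and *Timp3* lower in the cells with *Mmp10* or *Mmp13*.

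*Mmp2* (gelatinase A), a constitutive product of stromal cells, was high in the same clusters in both libraries. It was at 600.6 CPM in UW and 664.3 CPM in W in cluster 0 (log2 ratio 0.15, 0.12 to 0.17) and at 633.5 and 555.3 CPM in cluster 10 (log2 ratio -0.19, -0.25 to -0.13). Clusters 0 and 10 held 95.4% of its UMIs in UW and 92.0% in W. The epithelial clusters had 2.39 to 5.94 CPM in UW and 6.68 to 8.77 CPM in W, and the 7 called higher (1, 2, 3, 4, 6, 7 and 11, of which 7 and 11 each lost the call under an alternative) had levels next to those of the CSC markers, as given above for W.

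*Mmp14* (MT1-MMP), the membrane-bound activator of pro-Mmp2, was spread over all clusters and passed 2-fold in none. It was at 35.7 to 86.5 CPM over the 12 clusters in UW and at 48.7 to 148.1 CPM in W. The largest difference was in cluster 3, from 84.7 to 148.1 CPM (log2 ratio 0.81, 0.73 to 0.88), which made this the highest level outside the immune clusters in W. Clusters 6 and 4 followed with log2 ratios of 0.67 and 0.50, and the lowest ratio was that of cluster 9, at -0.26 (-0.40 to -0.12). In clusters 0 and 7 the direction flipped with another scaling of the libraries. The Mono-like cluster 15 had the highest level of all, 176.7 CPM (161.3 to 193.3), against 93.9 CPM in cluster 14 and 27.2 CPM in cluster 13.

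*Timp2*, which both inhibits *Mmp2* and helps *Mmp14* to activate it, was highest in clusters 0 and 10 among clusters of at least 50 cells in both libraries. In cluster 0 it went from 1560 to 2081 CPM (log2 ratio 0.42, 0.40 to 0.43) and in cluster 10 from 1457 to 1764 CPM (log2 ratio 0.28, 0.24 to 0.32). Levels differed between epithelial clusters. In UW *Timp2* was at 197.9 CPM in the terminal-like cluster 7, 106.5 CPM in the superficial-like cluster 6, 99.4 CPM in the conjunctival-like cluster 5 and 76.2 CPM in the limbal-like cluster 9. It was at 29.9 CPM in the other superficial-like cluster, 2, and at 7.13 CPM in the suprabasal-like cluster 1.

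In W *Timp2* was at 236.8 CPM in cluster 7, where the direction flipped with another scaling, and at 99.9 CPM in cluster 6. In cluster 2 it was at 52.5 CPM, a log2 ratio of 0.81 (0.71 to 0.92) that did not reach 2-fold. The low clusters 1, 3 and 4 were called higher, at 29.8, 32.9 and 30.1 CPM (log2 ratios 2.07, 1.49 and 1.75), which was 1.48% to 1.63% of the level in clusters 0 and 10, where the median CSC marker was at 0.787% to 0.909%. In cluster 1 *Timp2* lay within the range of the CSC markers, the highest of which was at 1.54% against 1.48% for *Timp2*, while in clusters 3 and 4 the highest marker was at 1.11% and 1.20%. Cluster 5 went from 99.4 to 62.2 CPM, a log2 ratio of -0.68 (-0.76 to -0.59), which did not reach 2-fold.

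*Timp3*, the inhibitor that stays bound to the matrix, marked cluster 10 and the basal layers. In UW it was at 986.0 CPM in cluster 10, 390.0 CPM in the limbal-like cluster 9, 178.8 and 171.5 CPM in clusters 8 and 11, with overlapping intervals, and 135.3 CPM in cluster 3, above the 90.2 CPM of cluster 0. The suprabasal-like to terminal-like clusters 1, 2, 4, 6 and 7 had 3.36 to 13.5 CPM.

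It was the only member called lower in W. Cluster 9 fell to 132.0 CPM (log2 ratio -1.56, -1.64 to -1.49), cluster 11 to 61.0 CPM (-1.49, -1.59 to -1.39), cluster 3 to 52.1 CPM (-1.38, -1.47 to -1.28) and cluster 8 to 71.1 CPM (-1.33, -1.41 to -1.25). The share of cells with a UMI fell from 94.4% to 81.3% in cluster 9 and from 66.5% to 37.1% in cluster 3, and after thinning from 77.4% to 42.9% and from 39.5% to 18.4%. In cluster 10 the log2 ratio was -0.29 (0.01 with stricter limits on cells) and in cluster 0 it was -0.07 (-0.15 to 0.01). Cluster 4 went the other way, from 3.36 to 9.53 CPM (log2 ratio 1.51, 1.19 to 1.82), still far under the 132.0 CPM of cluster 9.

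Summing the 6 proteases and the 3 inhibitors, the UMIs of MMPs per UMI of TIMPs went from 0.420 to 1.96 in cluster 0, from 0.644 to 3.23 in cluster 10, from 0.607 to 2.80 in cluster 3 and from 0.171 to 0.737 in cluster 9. The ratio was higher in W in all 12 clusters except cluster 4 (4.23 to 3.64). There the intervals overlapped (3.85 to 4.66 in UW and 3.41 to 3.90 in W). It says nothing of protein or activity. Since *Mmp3* made up most of the MMP UMIs of W, the sums were also taken without it, a choice made after the values were seen. The ratios of clusters 0 and 10 then turned, from 0.417 to 0.281 in cluster 0 and from 0.289 to 0.229 in cluster 10, and clusters 1, 2 and 4 were lower in W as well. In clusters 1, 2 and 4 of W, *Timp2* was at 1.48%, 2.61% and 1.49% of its level in clusters 0 and 10. The highest CSC marker was at 1.54%, 1.19% and 1.20% there, and the part of stromal RNA in these ratios was not tested. Cluster 3 still went from 0.600 to 1.98, clusters 5, 6, 8, 9 and 11 were also still higher in W, and the intervals of cluster 7 overlapped.

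**Figure D5:**
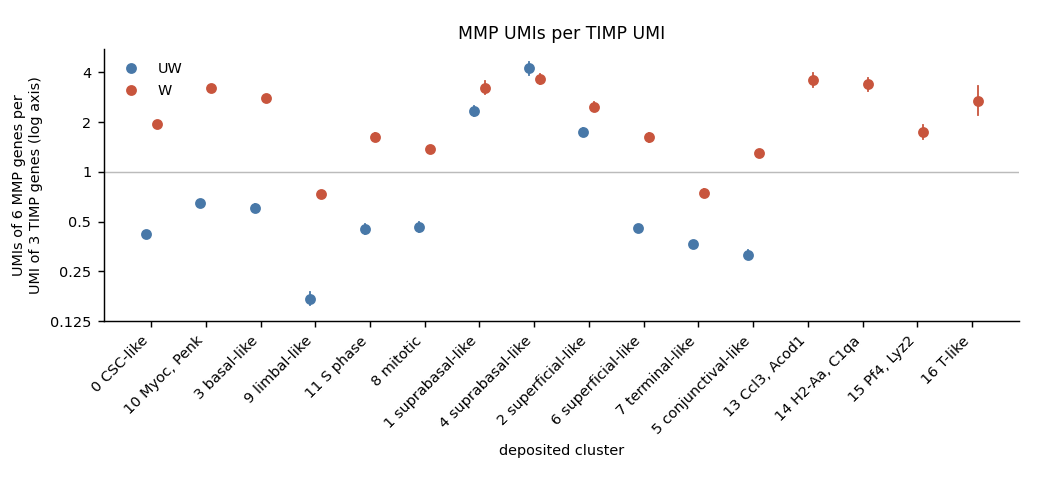
UMIs of the 6 MMP genes per UMI of the 3 TIMP genes (y axis, log scale) for each cluster (x axis) in UW and W, with 95% counting intervals. The W value is above the UW value in every cluster compared except cluster 4, where the intervals overlap.

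Over the 28 sums of a cluster and a library with at least 50 cells, the genes most like each member were found by Pearson's r of log2(CPM + 1), over the 6223 genes that reached 50 CPM in one of the sums. These sums share 2 libraries and their depths, so r is a description. *Mmp3* was most like *Timp1* (0.97), then *Chil1* and *Cxcl5*, and *Timp1* was most like *Mmp3*, then *Chil1* and *Serpina3n*. *Mmp2* was most like *Dpep1* (0.998), *C1s1* and *Twist1* (both 0.997). *Timp2* was most like *Dock4* (0.92), *Fam46a* and *Fzd1*, and *Timp3* was most like *Igfbp5* (0.94), *Id3* and *Gstm2*. *Mmp9* was most like *Acod1* (0.96), *Apobr* and *Slc7a11*, and *Mmp13* was most like *Pold4* (0.83), *Pf4* and *BC028528*. The likeness was weaker for *Mmp14*, with *Ctsl* (0.71), *Cln8* and *Grn*, and for *Mmp10*, with *Apol9b* (0.67), *Apol9a* and *Ppbp*.

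Other genes of matrix proteolysis were read from lists chosen for their function. In cluster 0, 7.34% of all genes were higher and 9.67% lower, with a median log2 ratio of -0.15, and these are the values beside which the counts in that cluster are to be read. Of 7 other Mmp genes with enough UMIs there, with a median of -0.02, 2 were higher in W, *Mmp12* and *Mmp19*, and 1 was lower, *Mmp23*. *Mmp12* (macrophage elastase), in the same stretch of chromosome 9 at chr9:7344381-7369499, had 0 UMIs there in UW and 1904 in W (58.7 CPM), a log2 ratio of at least 9.12 against a floor of 3 counts. *Mmp23* was highest in cluster 7, at 56.5 CPM in UW and 11.8 CPM in W (log2 ratio -2.26, -2.52 to -2.01). Of 7 other inhibitors and clearance genes in cluster 0, *Timp4* was higher and *A2m* and *Spock2* were lower. *A2m*, the broad protease trap alpha-2-macroglobulin, went from 11710 to 5599 CPM (log2 ratio -1.06). Another scaling of the libraries moved cluster 0 by 0.14 or 0.17, enough to take this ratio below 2-fold.

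Of 11 ADAMTS proteases in cluster 0, 5 were higher and 2 lower, while their median log2 ratio was -0.39. In cluster 10, where 4.97% of all genes were higher and 6.63% lower with a median of -0.09, 6 of 12 were higher and 3 lower, with a median of 0.62. *Adamts5*, an aggrecanase, went from 18.6 to 71.7 CPM in cluster 0 (log2 ratio 1.94) and *Adamts1* from 89.8 to 195.2 CPM in cluster 10 (log2 ratio 1.12). Of the ADAM proteases, 1 of 9 was higher in cluster 0 (median -0.11), and 2 of 8 were higher and 1 lower in cluster 10 (median -0.09). *Adam28* in cluster 6 went from 57.9 to 128.5 CPM, *Adam33* in cluster 10 from 75.1 to 35.2 CPM and *Adam15* in cluster 4 from 63.4 to 29.7 CPM. Their log2 ratios were 1.15, -1.09 and -1.10. Another scaling of the libraries moved cluster 6 by -0.16 and cluster 10 by 0.11 or 0.12. This was enough to take *Adam28* and *Adam33*, but not *Adam15*, just below 2-fold.

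Among the 17 genes of pro-MMP activation and induction compared in cluster 0, 5 were higher (*Plau*, *Plaur*, *Il1a*, *Il1b* and *Fosl1*) and 3 lower (*Fos*, *Fosb* and *Jun*), with a median of 0.45. *Fos* and *Fosb*, AP-1 subunits, went from 3377 to 597.4 CPM (log2 ratio -2.50) and from 1727 to 440.3 CPM (-1.97) in that cluster. In cluster 3, 6 of 17 were higher (*Furin*, *Plau*, *Plaur*, *Il1a*, *Il1b* and *Ets1*) and none lower, with a median of 0.56, where 15.1% and 11.1% of all genes were and the median of all genes was 0.03. *Il1a*, a cytokine known to induce MMP genes, went from 51.3 to 238.4 CPM in cluster 6 (log2 ratio 2.22), and *Jun* from 771.3 to 1825 CPM in cluster 7 (1.24). Another scaling of the libraries moved cluster 7 by -0.38 or -0.41, enough to take the ratio of *Jun* below 2-fold.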

How the data were processed

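Cells of corneas were processed in 2 libraries, UW and W. The authors used Cell Ranger 3.1.0 to count UMIs, kept cells by limits on genes and mitochondrial UMIs, took out doublets and cells marked by dissociation stress, clustered the rest, and deposited the raw counts with a table of cells. The paper and the labels differ in the kit version, and in the genome build (mm10 and mm9). Of the cells, 469 were named doublet in a deposited column, and no further doublet calling was done.

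Here the counts were summed per cluster and library and divided by the summed UMIs (Python 3.11.15, numpy 2.4.6, scipy 1.17.1). Libraries came from barcode prefixes. A ratio needed 50 cells in each library, a call 20 UMIs and 2-fold, and a sum of 0 was set to 3 counts for a bound. Shares were thinned to 5000 UMIs per cell, or 2000 in clusters 13 to 17, leaving out shallower cells. Depth per cluster and library was 5710692 to 60708276 UMIs in the 12 clusters compared. The ratio, its interval and the calls were tested on simulated data. The members, lists and markers were chosen with earlier results of these data known. Genes named beside the members were the 3 with the highest r for each, and at most 4 per list at 50 CPM or more and past 2-fold. Alternatives were stricter cell limits, TMM factors (edgeR 4.0.16), median-of-ratios size factors (DESeq2 1.42.0), the mean CPM of cells, no doublet-named cells, thinning, other folds and another pseudocount.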

Additional observations from a re-analysis of the deposited data

Results flagged for a closer look

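*Timp3* moved in opposite directions in 2 epithelial clusters. Its log2 ratio of W to UW was 1.51 (1.19 to 1.82) in the suprabasal-like cluster 4, at 3.36 and 9.53 CPM, and -1.56 (-1.64 to -1.49) in the limbal-like cluster 9, at 390.0 and 132.0 CPM. With 1 library per condition, the difference between the clusters was not tested. In W, cluster 4 had 4.10% of the *Timp3* level of clusters 0 and 10, where the CSC markers were at a median of 0.787%.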

How the results depend on the processing

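No paired analysis was possible because each condition had 1 library. The number of pairs of a member and a cluster called higher in W was 54 as reported and 42 to 69 under the alternatives, and the number called lower was 4, between 4 and 5 under all alternatives other than a 4-fold limit, under which it was 0. Of the 58 calls, 57 were kept under TMM factors, 57 under median-of-ratios size factors, 56 under stricter cell limits, 57 without doublet-named cells and 57 with the mean CPM of cells. Of the 54 that could be compared after thinning, 52 were kept. Of 74 ratios with UMIs in both libraries before and after thinning, 23 moved out of their counting intervals, by up to 2.54 on the log2 scale, and 13 others became or stayed bounds. The mean CPM of cells moved 11 of 91 ratios, by up to 1.17. No called ratio reversed under any of these, and the calls not kept were of *Mmp2* (clusters 7 and 11), which fell below 2-fold, and of *Mmp9* (5 and 9), *Mmp10* (8) and *Mmp13* (11), for which UW had 0 UMIs under the alternative and a lower bound under 2-fold does not decide the call. Uncalled ratios that changed sign were those of *Mmp14* (clusters 0 and 7), *Timp2* (7) and *Timp3* (0, 1, 7 and 10). TMM moved all genes of a cluster by -0.38 (cluster 7) to 0.14 (cluster 0) on the log2 scale. Of the 27 genes named as most like a member, 13 were named again with a pseudocount of 10 CPM. The other lists gave 138 pairs higher and 34 lower, and 185 and 45 without a minimum of UMIs. Depth limited the ratios of *Mmp9*, *Mmp10* and *Mmp13*, since their UW sums held few UMIs. The same held for *Timp1* outside cluster 10, with at most 13 UMIs in a UW sum.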

Other observations

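Other family members went both ways between the libraries. *Mmp12* had 6 UMIs over the whole UW library and 3164 in W (0.0163 and 10.9 CPM), *Mmp8*, the neutrophil collagenase, had 0 and 284, and *Mmp19* had 452 and 1550 (1.23 and 5.35 CPM). *Mmp23* had 4566 and 1633 (12.4 and 5.64 CPM) and *Mmp28* 1400 and 731 (3.81 and 2.52 CPM), while *Mmp15* had 3614 and 2467 and *Mmp16* 317 and 216, which were closer in CPM (9.84 and 8.52 for the former, 0.863 and 0.746 for the latter). Whole-library levels also depend on how many cells of each cluster a library held. *Mmp7*, *Mmp17*, *Mmp20*, *Mmp24*, *Mmp27* and *Timp4* had at most 57 UMIs in either library.

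Cluster 17 held 29 cells, all from W, and was led by *Cxcl9* and *Acod1* with both neutrophil and CSC markers high. It had *Mmp3* at 2058 CPM, *Mmp9* at 73.2 CPM, *Timp1* at 332.1 CPM and *Timp2* at 1897 CPM, the first in 96.6% and the last in all of its cells.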
